A study of Mus musculus with 12 samples.

Results

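The genes described here encode matrix glycoproteins and proteoglycans: Bgn, Dcn, Cspg4, Fn1, Fbn1, Fbln2, Tgfbi, Thbs1, Sparc and Fstl1. They are 10 of the 42329 entries in the deposited table. They were chosen by name with the guide and lactate results of these same libraries known, that is, from measured values, so their levels and changes are given as a description. RNA was sequenced from MC38, a mouse colon adenocarcinoma line, that carried a guide RNA against Hcar1 (sgHcar1) or a control guide (sgControl). Hcar1 encodes a G protein-coupled receptor for lactate. The groups were sgHcar1 cells in 20 mM lactate for 24 hours, sgHcar1 cells with PBS, sgControl cells in 20 mM lactate for 24 hours and sgControl cells with PBS, with 3 libraries each and 12 in all. The labels give neither the edited sequence nor the nuclease, and they do not say whether a guide's cells are 1 clone or a pool, or whether the libraries of a group are separate cultures. Each guide is represented by 1 population, so the guide and any other difference between the populations cannot be told apart.

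Proteoglycans are core proteins with sulfated sugar chains, which bind collagen, growth factors and water. Matrix glycoproteins such as fibronectin and fibrillin assemble into fibrils that cells hold through integrins, and matricellular proteins such as SPARC and thrombospondin change how cells attach and which growth factors reach them without building the scaffold. In colon tumours fibroblasts are a main source of these proteins, and tumour cells can make some of them.

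Values are FPKM, fragments normalised for gene length and library size, so levels are compared between genes per unit length. Read depth is unknown, and relative depth, estimated from the steps between low values, was 0.746 to 1 of the deepest library. Summed FPKM was 411996.2 to 421984.3 in sgHcar1 lactate, 362814.6 to 367976.7 in sgHcar1 PBS, 310109.0 to 317330.3 in sgControl lactate and 322359.4 to 324562.3 in sgControl PBS libraries. Correlations of log2(FPKM + 1) across genes were 0.99 to 0.992 within a group and 0.765 to 0.837 between guides. Hcar1 was listed at 0 in 11 libraries and at 0.0196 FPKM in 1 sgHcar1 PBS library, so its level could not check the guide. Of 7 epithelial markers, Epcam and Cdx2 were at 0 in all 12 libraries. The summed level of the 7 was 110.3 to 114.2 FPKM in sgHcar1 lactate, 44.9 to 48.5 in sgHcar1 PBS, 4.85 to 5.16 in sgControl lactate and 2.98 to 3.29 in sgControl PBS libraries. In sgHcar1 cells that sum was almost all Krt18, at a mean of 46.2 FPKM in sgHcar1 PBS and 0.0274 FPKM in sgControl PBS cells, while Cdh1 and Krt19 were at 0 in sgHcar1 group means and at 1.72 and 1.31 FPKM in sgControl PBS cells. Of 8 fibroblast markers, Lum and Thy1 were at 0 throughout, and the summed level was 65.9 to 71.9 FPKM in sgHcar1 lactate, 141.0 to 149.9 in sgHcar1 PBS, 119.9 to 124.7 in sgControl lactate and 134.7 to 138.6 in sgControl PBS libraries. This sum joins markers that ran opposite ways between guides. With PBS, Col1a2 averaged 114.6 FPKM in sgHcar1 and 45.5 FPKM in sgControl cells and Col1a1 23.1 and 1.01 FPKM, whereas Col3a1 averaged 1.55 FPKM in sgHcar1 and 67.2 FPKM in sgControl cells, Pdgfrb 5.08 and 17.8 FPKM and Pdgfra 0.462 and 5.02 FPKM. The summed level of 5 smooth muscle and pericyte markers was 1.52 to 1.55 FPKM in sgHcar1 lactate, 0.656 to 0.891 in sgHcar1 PBS, 1.06 to 1.52 in sgControl lactate and 1.68 to 2.37 in sgControl PBS libraries. Of 6 leukocyte markers, Itgam, Cd3e and Adgre1 were at 0 throughout, and the summed level, almost all Cd68, was 3.95 to 5.49 FPKM in sgHcar1 lactate, 1.39 to 2.23 in sgHcar1 PBS, 6.16 to 6.94 in sgControl lactate and 3.9 to 5.02 in sgControl PBS libraries. The summed level of 4 endothelial markers was at most 0.0937 FPKM in sgHcar1 and 0.821 FPKM in sgControl libraries. The part of these markers in the results below was not tested.

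Between the guides, 8 of the 10 genes were lower in sgHcar1 cells and 2, Fn1 and Thbs1, were higher, with PBS and with lactate, and under both other scalings of the libraries. Tgfbi, Bgn, Fstl1, Fbn1 and Cspg4 averaged between 48.2 and 249.2 FPKM in sgControl cells and lay at 1.03 FPKM or less in every sgHcar1 library. Fn1 ran the other way, at 194.3 FPKM or more in all 6 sgHcar1 libraries and at 24.2 FPKM or less in all 6 sgControl libraries. Summed over the 10 genes, the level was 289.9 ± 4.42 FPKM in sgHcar1 lactate, 333.6 ± 11.7 in sgHcar1 PBS, 1356.3 ± 22.0 in sgControl lactate and 1520.8 ± 10.6 in sgControl PBS cells (SD, n = 3 each). Fn1 made up 61.1% of that sum in sgHcar1 PBS cells and 1.44% in sgControl PBS cells, whereas Sparc made up 23.7% and 40.4%. In bulk samples, fewer cells that make a transcript and less of it per cell cannot be told apart.

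**Figure D1:**
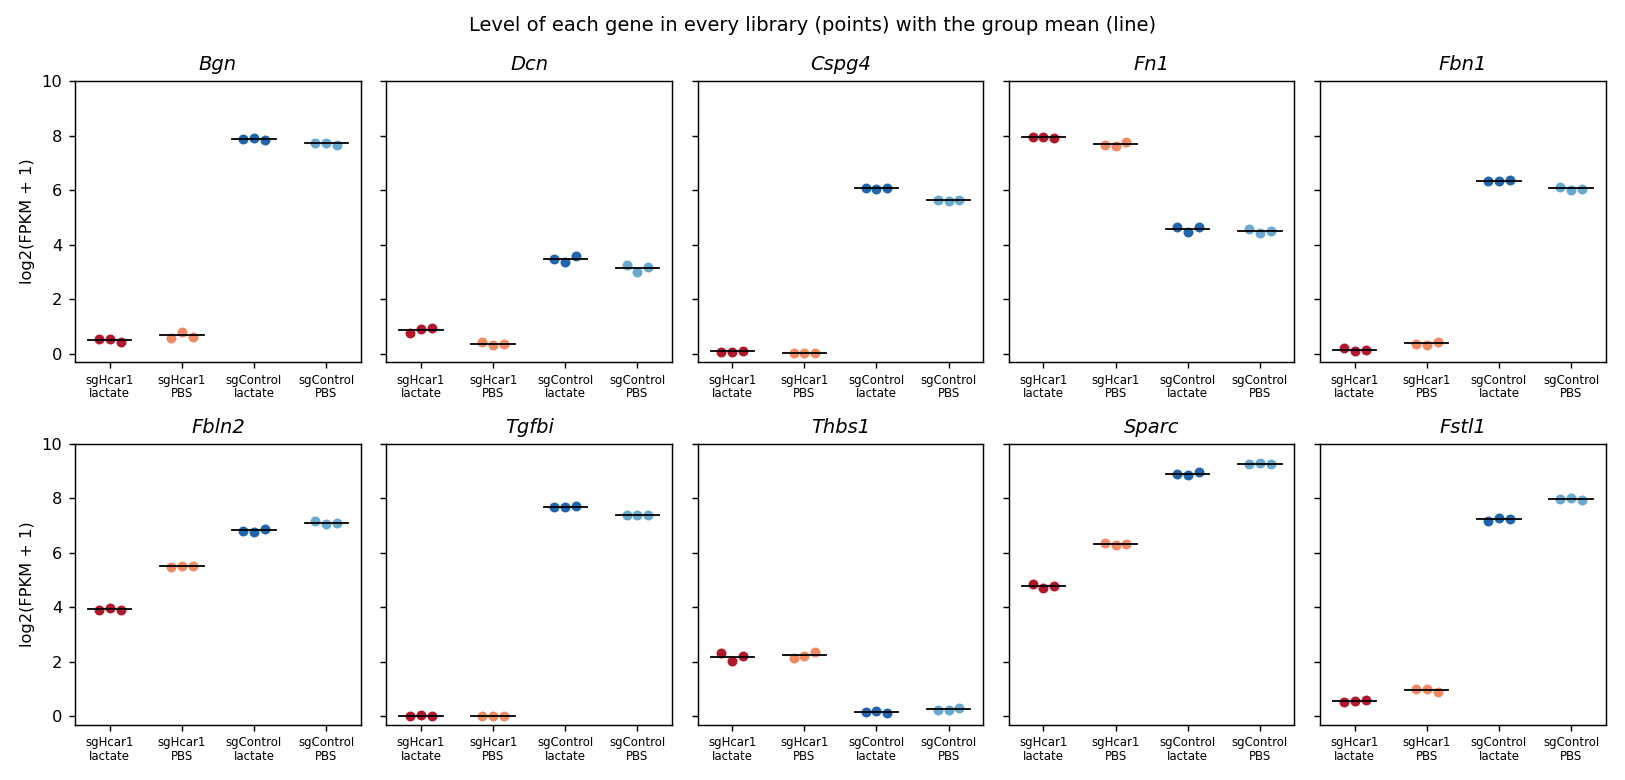
FPKM of the 10 genes in each of the 12 libraries, 1 panel per gene, as log2(FPKM + 1), with points for libraries and lines for the means of the 4 groups. In 8 panels the sgHcar1 points lie below the sgControl points, and in those of Fn1 and Thbs1 above.

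All 10 genes passed the filter on low values, at least 1 FPKM in at least 3 of the 12 libraries. Thbs1 passed through its sgHcar1 libraries alone, and Bgn, Dcn, Fbn1, Tgfbi, Cspg4 and Fstl1 would not have passed on their sgHcar1 libraries, so these 7 had to differ between guides. With limma on log2(FPKM + 1) and an adjusted p under 0.05, all 10 differed between guides in both media. Of all 13736 genes tested, 76.7% differed between guides with PBS and 82.2% with lactate. The median change of the 10 was -4.27 with PBS and -5.05 with lactate, against 0.01 over all genes in both. Since the genes were chosen with this contrast in view, nothing is read from these counts.

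Biglycan (Bgn), a small leucine-rich proteoglycan that binds collagen and TGF-beta, had 0.507, 0.749 and 0.526 FPKM in sgHcar1 PBS libraries, against 213.5, 212.3 and 201.1 FPKM in sgControl PBS libraries. With lactate it had 0.459, 0.467 and 0.36 FPKM in sgHcar1 libraries, against 233.9, 236.7 and 229.5 FPKM in sgControl libraries. The groups stood far apart, by a mean ratio of 352-fold with PBS and 545-fold with lactate. Its log2 change was -7.04 ± 0.06 (SE) with PBS, and only 6 of the genes tested were further down. Decorin (Dcn), its close relative, which regulates collagen fibril width, was never abundant. It had 0.34, 0.25 and 0.29 FPKM in sgHcar1 PBS libraries and 8.65, 6.89 and 7.95 FPKM in sgControl PBS libraries. In lactate the sgHcar1 libraries had 0.688, 0.886 and 0.942 FPKM, against 10, 9.36 and 11.1 FPKM in sgControl libraries. The guide ratio of decorin was thus 26.7-fold with PBS and 12.1-fold with lactate, the lowest and highest libraries of each pair not overlapping. The sgHcar1 values of decorin correspond to as few as 8 to 11 fragments with PBS and 20 to 26 with lactate. Cspg4 (NG2), a transmembrane chondroitin sulfate proteoglycan of pericytes and glial precursors, had 0.00799, 0.0243 and 0.0225 FPKM in sgHcar1 PBS libraries, against 49.3, 47.2 and 48.2 FPKM in sgControl PBS libraries. In lactate it had 0.0445, 0.0529 and 0.0844 FPKM in sgHcar1 libraries and 67.1, 65.3 and 66.0 FPKM in sgControl libraries. The sgHcar1 values correspond to as few as 1 to 9 fragments, so no fold is given for Cspg4. The log2(FPKM + 1) change of Cspg4 was -5.59 ± 0.03 with PBS and -5.98 ± 0.03 with lactate.

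Fibronectin (Fn1), which forms the first fibrils of a provisional matrix, was the most abundant of the 10 in sgHcar1 cells. It had 202.8, 194.3 and 215.0 FPKM in sgHcar1 PBS libraries, against 23.1, 20.6 and 21.9 FPKM in sgControl PBS libraries. In lactate it had 247.3, 243.9 and 240.0 FPKM in sgHcar1 libraries and 23.8, 21.3 and 24.2 FPKM in sgControl libraries. The ratio was 9.34-fold with PBS and 10.5-fold with lactate (log2 changes 3.17 ± 0.06 and 3.34 ± 0.06). Fibrillin 1 (Fbn1), the backbone of the microfibrils that hold latent TGF-beta, had 0.286, 0.252 and 0.359 FPKM in sgHcar1 PBS libraries, against 69.0, 63.6 and 65.6 FPKM in sgControl PBS libraries. Under lactate it had 0.142, 0.0644 and 0.106 FPKM in sgHcar1 libraries, against 80.6, 79.2 and 81.9 FPKM in sgControl libraries. Fbn1 was 221-fold lower in sgHcar1 cells with PBS and 774-fold lower with lactate. The sgHcar1 lactate values of Fbn1 correspond to as few as 11 to 24 fragments, so the 774-fold is rough. Fibulin 2 (Fbln2), which links fibrillin, fibronectin and proteoglycans, had the smallest ratio between guides of the 8 lower genes. It had 43.7, 45.2 and 45.3 FPKM in sgHcar1 PBS libraries, against 141.1, 131.1 and 135.7 FPKM in sgControl PBS libraries. In lactate it had 13.8, 14.8 and 14.0 FPKM in sgHcar1 libraries, against 111.3, 108.5 and 116.3 FPKM in sgControl libraries. Fbln2 was therefore 3.04-fold lower with PBS and 7.89-fold lower with lactate.

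Tgfbi, a secreted adhesion protein named for its induction by TGF-beta, was listed at 0 in all 3 sgHcar1 PBS libraries, against 167.4, 167.4 and 167.9 FPKM in sgControl PBS libraries. In lactate it was listed at 0, 0.0265 and 0 FPKM in sgHcar1 libraries and at 205.8, 202.4 and 208.7 FPKM in sgControl libraries. No fold is given against a group listed at 0, and on the log2(FPKM + 1) scale the change was -7.40 ± 0.03 with PBS. Thrombospondin 1 (Thbs1), an adhesive glycoprotein that activates latent TGF-beta, was low in every library. It had 3.39, 3.64 and 4.18 FPKM in sgHcar1 PBS libraries, against 0.18, 0.188 and 0.232 FPKM in sgControl PBS libraries. In lactate it had 3.98, 3.04 and 3.69 FPKM in sgHcar1 libraries, against 0.113, 0.158 and 0.103 FPKM in sgControl libraries. Thbs1 was 18.7-fold higher in sgHcar1 cells with PBS and 28.7-fold higher with lactate, the sgControl values corresponding to as few as 10 to 25 fragments.

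SPARC (Sparc, osteonectin), a collagen-binding matricellular protein, was the most abundant of the 10 in sgControl cells, where its mean ranked 53 among all entries with PBS. It had 80.2, 77.3 and 79.5 FPKM in sgHcar1 PBS libraries, against 607.3, 623.2 and 614.2 FPKM in sgControl PBS libraries. In lactate it had 27.9, 25 and 26.5 FPKM in sgHcar1 libraries, against 471.9, 463.1 and 493.4 FPKM in sgControl libraries. The guide ratio was 7.78-fold with PBS and 18.0-fold with lactate. Follistatin-like 1 (Fstl1), a secreted glycoprotein of the SPARC family, had 1.02, 1.03 and 0.843 FPKM in sgHcar1 PBS libraries, against 247.3, 254.5 and 245.8 FPKM in sgControl PBS libraries. Its lactate values were 0.433, 0.462 and 0.509 FPKM in sgHcar1 libraries and 141.4, 155.4 and 150.3 FPKM in sgControl libraries. Fstl1 was 259-fold lower in sgHcar1 cells with PBS and 318-fold lower with lactate. Sparc and Fstl1 thus shared a family and a direction but not a level in sgHcar1 cells.

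**Figure D2:**
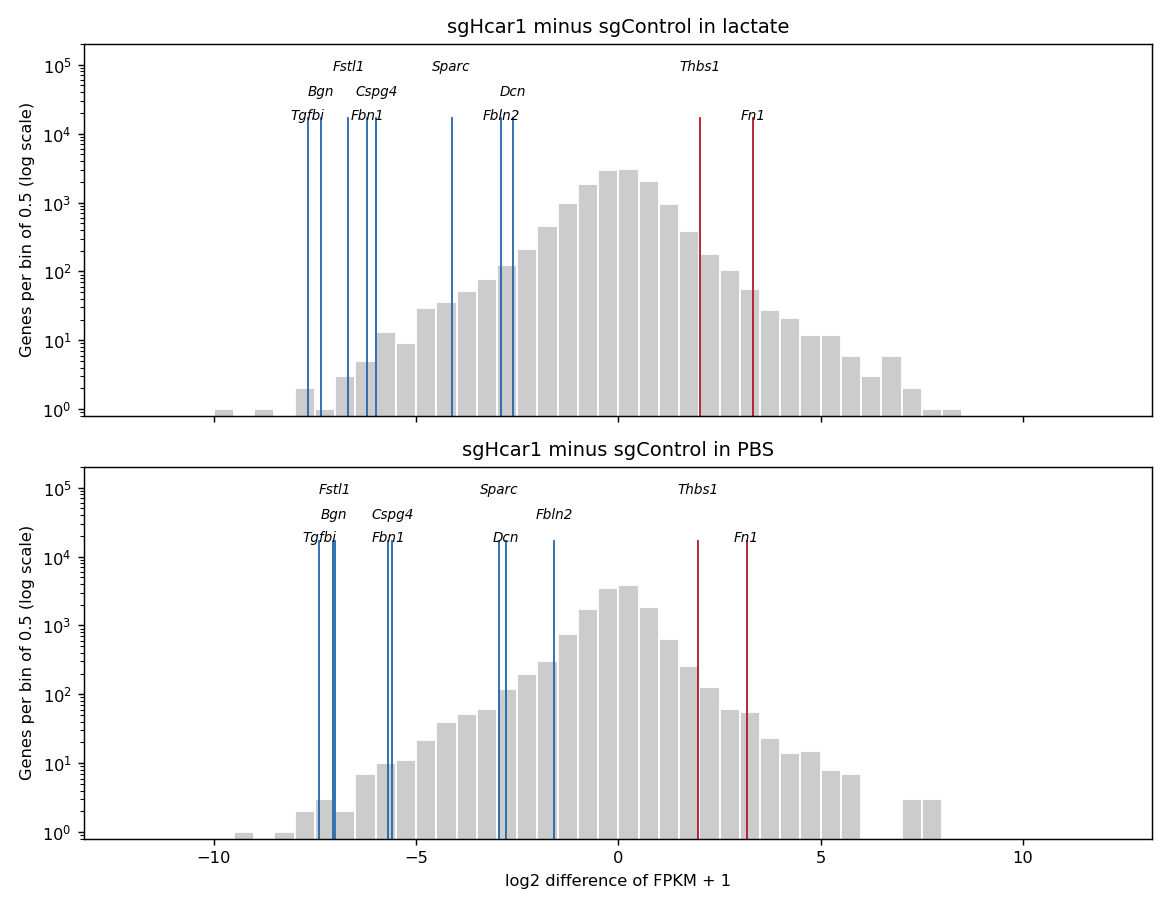
Log2 difference of FPKM + 1, sgHcar1 minus sgControl, in lactate (upper panel) and PBS (lower panel), with grey bars for the number of all 13736 genes tested in each bin of 0.5 (log axis) and named lines for the 10 genes. Fn1 and Thbs1 lie to the right of 0 and the other 8 genes to the left, Tgfbi, Bgn and Fstl1 furthest.

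With PBS, the sgHcar1 order from high to low was Fn1, Sparc, Fbln2, Thbs1, Fstl1, Bgn, Fbn1, Dcn, Cspg4 and Tgfbi, where the libraries of Fbn1 and Dcn overlapped. The sgControl order with PBS was Sparc, Fstl1, Bgn, Tgfbi, Fbln2, Fbn1, Cspg4, Fn1, Dcn and Thbs1, with no overlap between neighbours. With lactate, the sgHcar1 order was Fn1, Sparc, Fbln2, Thbs1, Dcn, Fstl1, Bgn, Fbn1, Cspg4 and Tgfbi, where Fstl1 overlapped Bgn and Fbn1 overlapped Cspg4. The sgControl order with lactate was Sparc, Bgn, Tgfbi, Fstl1, Fbln2, Fbn1, Cspg4, Fn1, Dcn and Thbs1, with no overlap between neighbours. Fn1 ranked 233 among all entries in sgHcar1 PBS cells and 2907 in sgControl PBS cells, whereas Bgn ranked 12879 and 195. Dcn moved up the sgHcar1 order with lactate, and Fstl1 moved down the sgControl order.

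On GRCm38.p6 in RefSeq, the 10 genes lie on 9 chromosomes, with Fbn1 and Thbs1 both on chromosome 2, and their spans run from 12336 bases for Bgn (chrX:73483601-73495936) to 205892 bases for Fbn1 (chr2:125300594-125506485). Promoter windows of 300 bases, from 250 before to 50 after a start, were matched by symbol for 7 of the 10 genes (RefSeq, GRCm38.p6). Those of Dcn, Fn1 and Thbs1 are not shown. By this placing, the start used for Fbln2 and for Fbn1 lies inside the RefSeq span of the gene, not at its end. The whole Fbln2 window lies inside that gene's span (chr6:91212460-91272540). The 4 windows printed were picked by size of change. Tgfbi and Bgn had the lowest log2(FPKM + 1) change of the 10 between guides. Sparc and Fbln2 had the largest with lactate in sgHcar1 cells on that scale. Capitals mark CG dinucleotides, and each window reads 5′ to 3′ on the gene's strand. Tgfbi lies at chr13:56609336-56609635 (plus strand), Bgn at chrX:73483351-73483650 (plus strand), Sparc at chr11:55420031-55420330 (minus strand) and Fbln2 at chr6:91212514-91212813 (plus strand).
Tgfbi: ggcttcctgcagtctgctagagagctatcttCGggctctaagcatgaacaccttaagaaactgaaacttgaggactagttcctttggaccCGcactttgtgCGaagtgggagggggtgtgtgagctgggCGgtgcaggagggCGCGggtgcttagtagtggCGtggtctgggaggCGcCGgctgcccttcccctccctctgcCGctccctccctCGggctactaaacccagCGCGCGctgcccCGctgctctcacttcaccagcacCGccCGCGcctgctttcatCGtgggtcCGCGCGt
Bgn: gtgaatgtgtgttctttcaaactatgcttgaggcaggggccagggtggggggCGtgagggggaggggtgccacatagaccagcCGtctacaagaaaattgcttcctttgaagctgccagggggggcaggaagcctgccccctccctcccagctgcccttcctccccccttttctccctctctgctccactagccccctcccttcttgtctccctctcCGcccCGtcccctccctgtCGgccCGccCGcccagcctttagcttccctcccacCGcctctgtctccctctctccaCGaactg
Sparc: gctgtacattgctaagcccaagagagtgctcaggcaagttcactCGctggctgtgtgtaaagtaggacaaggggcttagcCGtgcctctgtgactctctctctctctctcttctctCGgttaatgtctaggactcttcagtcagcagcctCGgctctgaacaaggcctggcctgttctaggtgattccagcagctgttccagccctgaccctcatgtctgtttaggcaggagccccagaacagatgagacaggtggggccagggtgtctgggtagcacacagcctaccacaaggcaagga
Fbln2: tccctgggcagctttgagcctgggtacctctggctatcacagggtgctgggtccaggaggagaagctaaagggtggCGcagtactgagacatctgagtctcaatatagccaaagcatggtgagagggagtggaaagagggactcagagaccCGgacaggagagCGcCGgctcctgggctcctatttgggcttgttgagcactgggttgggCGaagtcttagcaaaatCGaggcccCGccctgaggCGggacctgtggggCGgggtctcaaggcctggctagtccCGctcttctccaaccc

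The Tgfbi window held 22 CG dinucleotides, against 9 in Bgn, 10 in Fbln2 and 4 in Sparc. The other 3 windows held 21 in Fstl1, 17 in Cspg4 and 14 in Fbn1, and the median over 32851 promoter windows was 7. Sparc thus had the fewest, and 38.0% of all windows held as few. The GC box GGGCGG, read on both strands, occurred in 6 of the 7 windows, all but that of Sparc, against 35.7% of all windows. The SMAD motif CAGACA occurred in the windows of Cspg4 and Sparc, against 21.0% of all windows. None of the 7 held the AP-1 motif TGANTCA, the TEAD motif GGAATG or the TATA box TATAAA, which occurred in 7.81%, 14.7% and 13.6% of all windows. GC box matches that overlapped in the Bgn window shared 2 bases. A match describes these letters and no binding.

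With lactate, sgHcar1 cells had lower Sparc and Fbln2, at 0.335 and 0.317 of their PBS means, together with lower Fstl1, Fbn1 and Bgn and higher Dcn and Fn1, the last not past the threshold after rescaling. In sgControl cells Cspg4, Dcn, Tgfbi, Fbn1 and Bgn were higher with lactate, Bgn not past the threshold after rescaling, and Fstl1, Sparc and Fbln2 were lower. Of the 10 genes, 2 rose and 5 fell past the threshold in sgHcar1 cells, where 72.2% of all genes passed. In sgControl cells 5 rose and 3 fell, where 65.7% of all genes passed. Shares of 7 and 8 in 10 lie near these backgrounds, and since the genes were chosen with both contrasts in view nothing is read from them. The median change of the 10 was -0.10 in sgHcar1 and 0.12 in sgControl cells, against 0.00 over all genes in both.

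Among the proteoglycans, the decorin libraries did not overlap between media in either population. The mean of Dcn was 2.86 times as high with lactate as with PBS in sgHcar1 cells and 1.30 times in sgControl cells, with log2 changes of 0.51 ± 0.09 and 0.34 ± 0.09. Bgn fell by 0.16 ± 0.06 in sgHcar1 cells and rose by 0.16 ± 0.06 in sgControl cells on the log2 scale, both close to the threshold. The fall was lost without sgHcar1 PBS replicate 2 (-0.09) or sgHcar1 lactate replicate 3 (-0.12). The rise was lost without sgControl lactate replicate 1 (0.16) or 2 (0.15), or without sgControl PBS replicate 3 (0.13). It was also lost with a pseudocount of 0.1 (0.16) and with libraries rescaled to one sum (0.21). The sgControl libraries of Bgn did not overlap between media, at 229.5 to 236.7 FPKM with lactate and 201.1 to 213.5 FPKM with PBS. The spread in the fit also took in the sgHcar1 libraries of Bgn, at 0.36 to 0.749 FPKM. Leaving out any 1 sgHcar1 library kept the rise at 0.16 and past the threshold. Its adjusted p was lowest without sgHcar1 PBS replicate 2, the library at 0.749 FPKM. Cspg4 averaged 66.2 ± 0.904 FPKM with lactate and 48.2 ± 1.08 FPKM with PBS in sgControl cells (SD, n = 3 each), a rise of 0.45 ± 0.03. Its sgHcar1 libraries held 5, 6 and 9 steps of the smallest value with lactate and 1, 3 and 3 with PBS, each step standing for at least 1 fragment. Those groups did not overlap, but on log2(FPKM + 1) the change of 0.06 ± 0.03 missed the threshold, which it passed with a pseudocount of 0.1 (0.44) and after rescaling (0.12).

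Among the structural glycoproteins, Fbln2 averaged 14.2 ± 0.509 FPKM with lactate and 44.7 ± 0.853 FPKM with PBS in sgHcar1 cells (SD, n = 3 each), a log2 change of -1.59 ± 0.04. In sgControl cells it averaged 112.0 ± 3.96 FPKM with lactate and 136.0 ± 5.02 FPKM with PBS, a change of -0.28 ± 0.04. Of all genes tested, 1.67% fell as far as Fbln2 in sgHcar1 cells and 26.6% in sgControl cells. Fn1 rose by 0.26 ± 0.06 in sgHcar1 cells, where means were 243.7 ± 3.66 FPKM with lactate and 204.0 ± 10.4 FPKM with PBS, but under rescaling the change was 0.07 and missed the threshold. In sgControl cells the Fn1 libraries of the media overlapped, and the change of 0.08 ± 0.06 did not pass, except without sgControl lactate replicate 2 (0.13). Fbn1 had 0.348 times its PBS level with lactate in sgHcar1 cells (log2 change -0.23 ± 0.04). In sgControl cells its lactate level was 1.22 times its PBS level (0.28 ± 0.04). That rise missed the threshold with a pseudocount of 0.1, where its size was 0.29. The sgControl libraries of Fbn1 did not overlap, at 79.2 to 81.9 FPKM with lactate and 63.6 to 69.0 FPKM with PBS. The spread in the fit also took in the sgHcar1 libraries, at 0.0644 to 0.359 FPKM. Tgfbi rose by 0.29 ± 0.03 in sgControl cells and had 1 nonzero library of 6 in sgHcar1 cells.

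**Figure D3:**
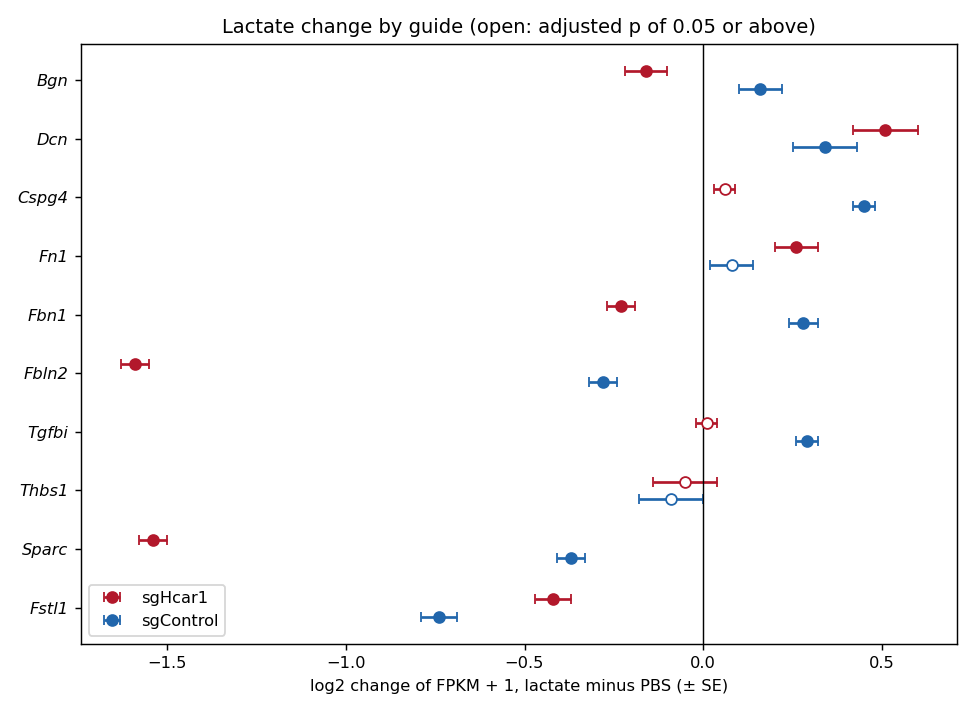
Log2 change of FPKM + 1, lactate minus PBS, for each of the 10 genes in sgHcar1 cells (red) and sgControl cells (blue), with bars of ± SE and open points for an adjusted p of 0.05 or above. In sgHcar1 cells Fbln2 lies at -1.59 and Sparc at -1.54, and Bgn and Fbn1 lie on opposite sides of 0 in the 2 populations.

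Among the matricellular genes, Sparc averaged 26.5 ± 1.47 FPKM with lactate and 79.0 ± 1.48 FPKM with PBS in sgHcar1 cells, a log2 change of -1.54 ± 0.04. In sgControl cells it averaged 476.1 ± 15.6 FPKM with lactate and 614.9 ± 7.98 FPKM with PBS, a change of -0.37 ± 0.04 (SD, n = 3 each). Its rank among all entries was 2580 with lactate and 694 with PBS in sgHcar1 cells, against 66 and 53 in sgControl cells. Fstl1 fell by 0.42 ± 0.05 in sgHcar1 cells and by 0.74 ± 0.05 in sgControl cells, the largest fall of the 10 in sgControl cells. As a ratio of means Fstl1 was at 0.486 of its PBS level in sgHcar1 and at 0.598 in sgControl cells, so the order of the 2 populations depends on the scale. Thbs1 showed no called change with lactate in either population, at -0.05 ± 0.09 in sgHcar1 and -0.09 ± 0.09 in sgControl cells. Its sgControl libraries did not overlap between media, at 12, 16 and 10 steps with lactate and 19, 18 and 25 with PBS, and with a pseudocount of 0.1 that change of -0.42 passed.

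**Figure D4:**
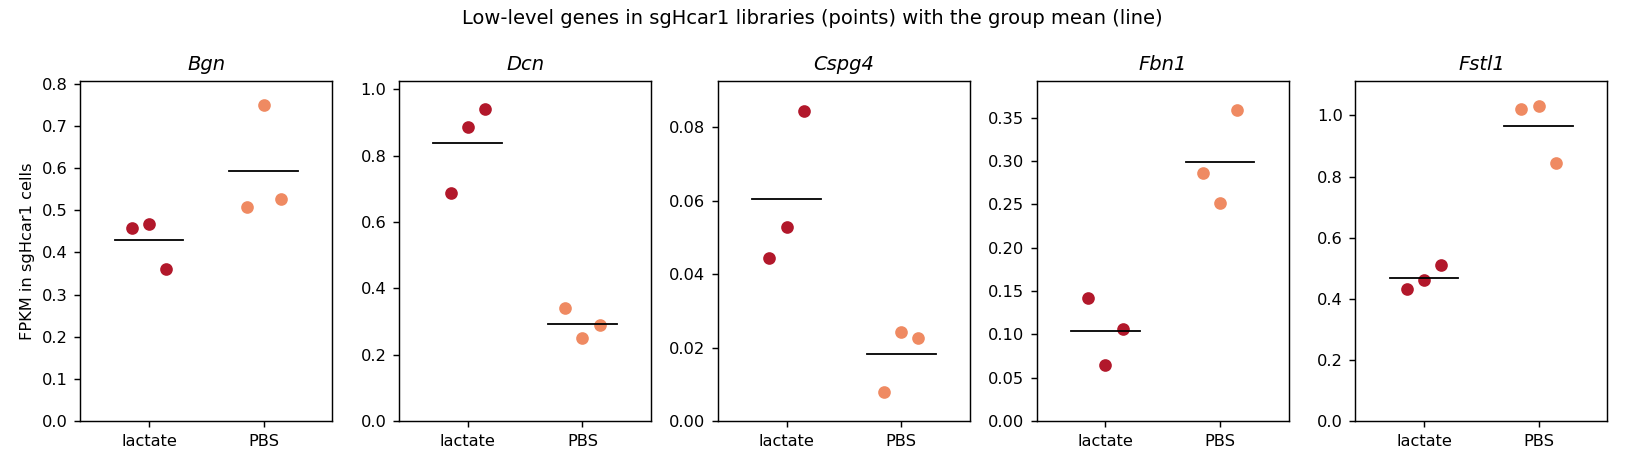
FPKM of Bgn, Dcn, Cspg4, Fbn1 and Fstl1 in the 6 sgHcar1 libraries, with lactate left of PBS, points for libraries, lines for group means and an own axis from 0 in each panel. The media do not overlap in any panel, with Dcn and Cspg4 higher with lactate and Bgn, Fbn1 and Fstl1 lower.

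The difference between the lactate effects, sgHcar1 minus sgControl, sets the responses of the guide populations against each other. It passed for 7 of the 10 genes, 1 higher and 6 lower, where 59.1% of all genes passed, and since the genes were chosen with these results known nothing is read from the count. The median of the 10 was -0.30, against 0.01 over all genes. The differences of Fbln2, -1.31 ± 0.05, and Sparc, -1.18 ± 0.05, passed under every alternative, and both genes fell in both populations, further in sgHcar1 cells. Fbn1 differed by -0.52 ± 0.06 and Bgn by -0.31 ± 0.08, with a fall in sgHcar1 and a rise in sgControl cells. For Cspg4 (-0.39 ± 0.05) and Tgfbi (-0.28 ± 0.04) the rise was in sgControl cells at levels far above those of sgHcar1 cells, and with a pseudocount of 0.1 both differences were lost (-0.02 and -0.18). Fstl1 differed by 0.32 ± 0.06, and its sign turned with a pseudocount of 0.1 (-0.16) and after rescaling (-0.08). The differences of Dcn (0.17 ± 0.12), Fn1 (0.18 ± 0.08) and Thbs1 (0.04 ± 0.12) did not pass, while that of Dcn passed with a pseudocount of 0.1 (0.88), that of Fn1 turned to -0.05 after rescaling and that of Thbs1 turned to -0.02. The Fn1 difference passed without sgControl PBS replicate 2 (0.22), sgControl lactate replicate 3 (0.21) or sgHcar1 PBS replicate 3 (0.22), and with the replicate number as a block (0.18).

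Beside the 10 genes, 6 lists of related genes, written with earlier results of these data known, were counted in the same fits. Their counts are therefore given as a description. The genes named were picked as up to 4 called genes with the largest change per list and contrast, so small p-values follow from that choice. By limma, each change or difference picked in this way had an adjusted p of 0.00915 or less, and its direction held under rescaling. Esm1, Vcan, Xylt1, Igfbp7 and others had means under 1 FPKM in both groups of 1 guide. These passed the filter on low values through the other guide alone, so they had to differ between guides. Over all genes the median was 0.00 for lactate in either population and 0.01 for the other contrasts, and the share of genes called is that given above for each contrast.

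Of 13 tested proteoglycan core proteins, 5 were higher and 7 lower in sgHcar1 than in sgControl cells with PBS, and 4 were higher and 8 lower with lactate. Esm1 (endocan), a dermatan sulfate proteoglycan, averaged 241.2 FPKM in sgHcar1 PBS cells and 0.0576 FPKM in sgControl PBS cells, and Ogn (osteoglycin), of the leucine-rich family of Bgn and Dcn, 24.7 and 0.078 FPKM. Vcan (versican), a large chondroitin sulfate proteoglycan, had 0.208 FPKM in sgHcar1 PBS cells and 22.0 FPKM in sgControl PBS cells, and Prelp 0.145 and 13.7 FPKM. The guide difference thus ran both ways among proteoglycans, with a median of -0.46 with PBS and -0.45 with lactate. With lactate, 2 rose and 7 fell in sgHcar1 cells, and 1 rose and 7 fell in sgControl cells. The lactate medians were -0.12 in sgHcar1 and -0.24 in sgControl cells, and after rescaling 0 rose and 9 fell in sgHcar1 cells. The difference between the effects was higher for 4 and lower for 5, which became 4 and 8. Esm1 averaged 100.4 FPKM with lactate and 241.2 FPKM with PBS in sgHcar1 cells. Sdc1 (syndecan 1), a cell surface heparan sulfate proteoglycan, fell by 1.36 ± 0.06 on the log2 scale in sgHcar1 cells. In sgControl cells Sdc1 averaged 14.8 FPKM with lactate and 20.7 FPKM with PBS. Its relative Sdc4 fell by 0.73 ± 0.04 in sgHcar1 cells and fell by 1.24 ± 0.04 in sgControl cells, in each case on the log2 scale.

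Of 34 tested enzymes that make sugar chains, 3 rose and 19 fell with lactate in sgHcar1 cells, and 10 rose and 14 fell in sgControl cells, with medians of -0.17 and -0.05. The difference between the effects passed for 24 of them, 2 higher and 22 lower, with a median of -0.35 against 0.01 over all genes. Chst14, the dermatan 4-O-sulfotransferase, had 3.36 FPKM with lactate and 12 FPKM with PBS in sgHcar1 cells, against 13.3 and 16.7 FPKM in sgControl cells. Xylt2, which starts the chains on core proteins, had 2.97 FPKM with lactate and 10 FPKM with PBS in sgHcar1 cells. In sgControl cells Xylt2 had 5.56 FPKM with lactate and 10.1 FPKM with PBS. Glce, the heparan sulfate epimerase, rose by 1.43 ± 0.05 in sgControl cells. There Ugdh, which makes the UDP-glucuronate for the chains, fell by 0.91 ± 0.04. In sgHcar1 cells Glce averaged 22.4 FPKM with lactate and 18.5 FPKM with PBS, and Ugdh 39.4 and 74.9 FPKM. Between guides 14 were higher and 14 lower in sgHcar1 cells with PBS, which became 10 and 18 after rescaling, and 9 were higher and 22 lower with lactate, which became 4 and 28, with medians of -0.01 with PBS and -0.56 with lactate. Xylt1, Chst11 and Ust were listed at 0 in both sgHcar1 group means and averaged 5.01, 5.31 and 2.59 FPKM in sgControl PBS cells. Has1, a hyaluronan synthase, averaged 1.5 FPKM in sgHcar1 PBS and 31.4 FPKM in sgControl PBS cells.

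Of 13 tested elastic fibre and other structural glycoproteins, 6 were higher and 7 lower in sgHcar1 cells in both media, with a median of -0.73 with PBS and -1.07 with lactate. Ecm1 averaged 5.68 FPKM in sgHcar1 PBS and 274.3 FPKM in sgControl PBS cells, Ltbp2, which binds fibrillin, 0.567 and 37.8 FPKM, and Emilin2 0.755 and 39.2 FPKM. Nid1 (nidogen 1), a basement membrane linker, was higher, at 12.4 FPKM in sgHcar1 PBS and 0.0516 FPKM in sgControl PBS cells. With lactate, 3 rose and 6 fell in sgHcar1 cells, and 3 rose and 9 fell in sgControl cells, with medians of 0.00 and -0.27. Efemp2 (fibulin 4) fell by 1.12 ± 0.04 in sgHcar1 cells and fell by 0.98 ± 0.04 in sgControl cells. The difference between the effects was higher for 5 and lower for 3, which became 2 and 7 after rescaling.

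Of 8 tested matricellular and SPARC family genes, 4 were higher and 4 lower in sgHcar1 cells in both media, with a median of -0.03 with PBS and -0.10 with lactate. Thbs2, a relative of Thbs1, averaged 9.53 FPKM in sgHcar1 PBS and 0.206 FPKM in sgControl PBS cells, and Fst (follistatin), an activin-binding relative of Fstl1, 6.86 and 0.257 FPKM. Igfbp7 was listed at 0 in sgHcar1 PBS libraries and averaged 45.8 FPKM in sgControl PBS cells. Spp1 (osteopontin) averaged 847.0 FPKM with lactate and 649.1 FPKM with PBS in sgHcar1 cells, against 380.6 and 121.3 FPKM in sgControl cells. With lactate, 4 rose and 1 fell in sgHcar1 cells, which became 3 and 2 after rescaling, and 5 rose and 2 fell in sgControl cells, with medians of 0.11 and 0.26. The difference passed for 2 higher and 3 lower, which became 1 and 4.

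Of 14 tested genes for matrix processing, crosslinking and uptake, 3 were higher and 10 lower in sgHcar1 cells in both media, and after rescaling 1 was higher and 11 lower with lactate. The medians were -0.65 with PBS and -0.75 with lactate. Loxl1, a lysyl oxidase that crosslinks elastin, averaged 0.135 FPKM in sgHcar1 PBS and 13.1 FPKM in sgControl PBS cells, and Mrc2, a collagen uptake receptor, 5.22 and 36.8 FPKM. With lactate, 3 rose and 7 fell in sgHcar1 cells, and 5 rose and 5 fell in sgControl cells, with medians of -0.17 and -0.09. Tgm2 (transglutaminase 2), which crosslinks fibronectin, rose by 1.36 ± 0.05 in sgHcar1 cells, while Pcolce, an enhancer of procollagen processing, fell by 0.89 ± 0.03 in sgHcar1 and by 0.60 ± 0.03 in sgControl cells.

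Of 17 tested TGF-beta ligands, receptors and feedback genes, 13 rose and 3 fell with lactate in sgHcar1 cells, and 9 rose and 4 fell in sgControl cells. The medians were 0.48 and 0.23, against 0.00 over all genes. The feedback inhibitors Skil and Smad7 rose in both, Skil by 1.6 ± 0.04 in sgHcar1 and 1.08 ± 0.04 in sgControl cells, and Smad7 by 1.19 ± 0.07 and 0.81 ± 0.07. Tgfb3, a TGF-beta ligand, fell by 1.54 ± 0.07 in sgHcar1 cells and fell by 0.87 ± 0.07 in sgControl cells. Between guides with PBS, 5 were higher and 9 lower in sgHcar1 cells, which became 3 and 11 after rescaling, and Tgfb1 averaged 3.67 FPKM in sgHcar1 and 10.3 FPKM in sgControl cells. With lactate 8 were higher and 9 lower, which became 5 and 10, and the median was -0.27 in both media. The difference between the lactate effects was higher for 8 and lower for 4, which became 5 and 7.

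**Figure D5:**
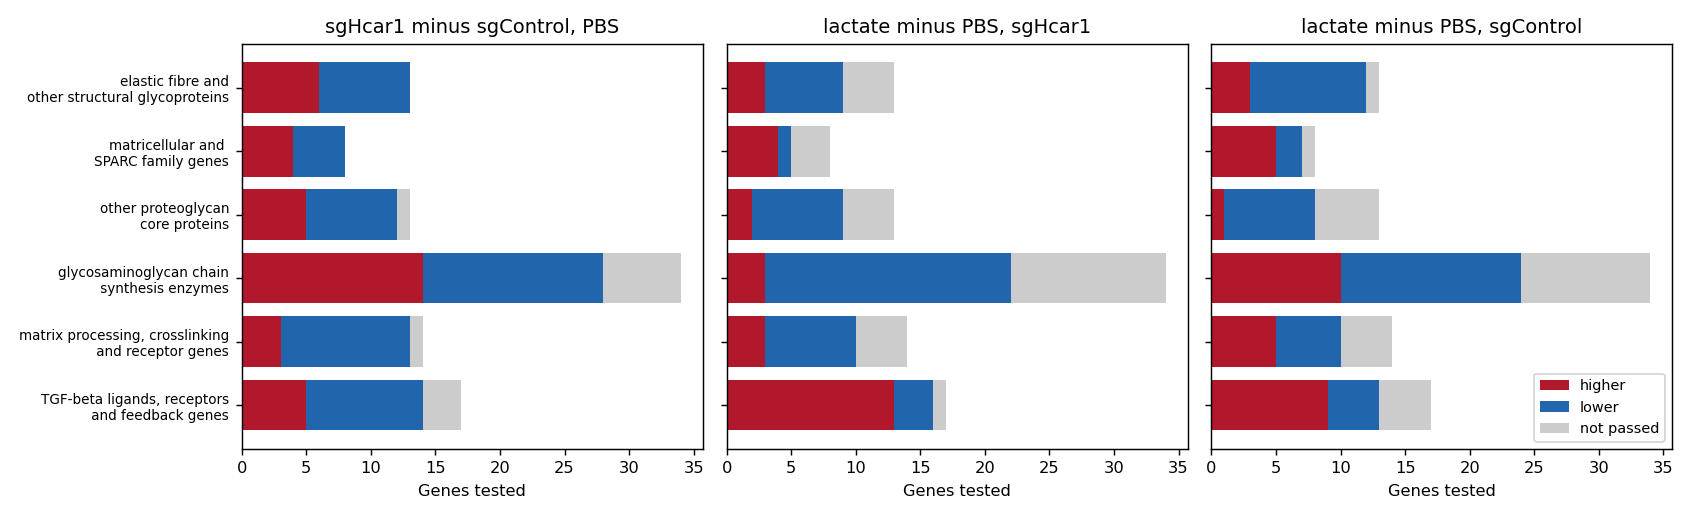
Number of tested genes of each of 6 matrix lists that were higher, lower or past no threshold (adjusted p under 0.05), for sgHcar1 minus sgControl with PBS (left), lactate minus PBS in sgHcar1 cells (middle) and in sgControl cells (right). With lactate in sgHcar1 cells, 19 sugar chain enzymes were lower and 3 higher, and in the TGF-beta list 3 were lower and 13 higher. Over all genes 4867 were lower and 5050 higher in that contrast, 72.2% of those tested.

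Over the 12 libraries, the tested gene with a symbol whose log2(FPKM + 1) was most like each of the 10 had a Pearson correlation of 0.9973 to 0.9999. It was Peg13 for Bgn, Rarg for Dcn, Slco3a1 for Cspg4, Fer1l6 for Fn1, Col6a1 for Fbn1, Ephb4 for Fbln2, Gm22 for Tgfbi, Gm15398 for Thbs1 and Rhob for Fstl1. For Sparc it was an entry whose symbol the table holds as a calendar date. The libraries fall into 4 groups set far apart by guide, which the points share, so these values describe the pattern of group means.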

How the data were processed

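Per the labels' protocols, libraries were made from Trizol-extracted RNA with a TruSeq kit. The authors deposited 1 table of FPKM, named as such in its headers, for 12 libraries. The submitters' processing notes list GRCm38 as build, featureCounts 1.5.0-p3 and HISAT2 2.0.5. Which fragments make up a library's total, and any filter, are not given in the sources used here. Gene identifiers are those of the Ensembl C57BL/6NJ annotation. All 12 value columns were used, assigned to groups by their letters (the letter of the sgHcar1 columns by elimination).

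The model, limma 3.58.1 under R 4.3.3 on log2(FPKM + 1), had 1 mean per group over all 12 libraries, an intensity trend and no replicate block. Two-sided tests were adjusted by Benjamini-Hochberg over the 13736 genes that reached 1 FPKM in 3 or more libraries, at a threshold of 0.05. A pseudocount of 1 understates changes of low genes. Since the labels do not say that libraries are separate cultures, p-values measure the spread between libraries, which may be technical. Changes are given ± SE from this fit, and means ± SD over 3 libraries. Each gene had 1 estimate of spread, shared by all groups. The SE and p-value of a change in 1 population therefore also carry the spread of the other. Low values, times relative depth, were whole multiples of 1 step per gene within 0.1, and no count test was run. The fit was tested on simulated data, for lactate in sgControl only. Changes were put into genes with a mean log2(FPKM + 1) above 1 in sgControl PBS libraries, 50 for each size. Of these, 66% were called at 1.25-fold, 82% at 1.5-fold, 90% at 2-fold and 98% at 4-fold. Smaller changes and lower genes were not covered. No other genes were changed in the simulation, whereas 65.7% of all genes were called for lactate in sgControl cells in the data. The Benjamini-Hochberg cut-off depends on that share, so these percentages do not give the recovery in the data.

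The 10 genes and the 6 lists were chosen with earlier results of these data known. Named are the 10 genes, Hcar1, up to 4 called genes per list and contrast with the largest change (of which the text gives a part, and 1 of which is not reported here), and the gene most like each of the 10. RefSeq gave promoters. Python 3.11.15 with pandas 2.3.3, numpy 2.4.6 and matplotlib 3.10.9 made tables and figures. Alternatives were a pseudocount of 0.1, no filter, median-ratio scaling, rescaling to a sum of 1000000, a replicate block and leaving out each library.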

Additional observations from a re-analysis of the deposited data

Results flagged for a closer look

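The lactate effect in sgHcar1 cells minus that in sgControl cells differed from 0 by limma's test of the difference (adjusted p under 0.05 over all genes) for 7 of the 10 matrix genes, where 59.1% of all genes did so. On the log2(FPKM + 1) scale the differences were -0.31 for Bgn, -0.52 for Fbn1, -1.31 for Fbln2, -0.28 for Tgfbi, 0.32 for Fstl1, -0.39 for Cspg4 and -1.18 for Sparc. In 5 of the lists of related genes, the gene with the largest such difference was Matn2 at -1.10 (structural glycoproteins), Spp1 at -1.26 (matricellular genes), Esm1 at -1.19 (proteoglycans), Chst14 at -1.27 (sugar chain enzymes) and Adamts1 at -1.23 (matrix processing).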

How the results depend on the processing

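The counts of called genes, over all genes and over the 10, stayed within 1.5 times their values under each alternative run. Rescaling each library to a sum of 1000000 moved the median of all genes. The median became 0.041 for lactate in sgControl, -0.122 for lactate in sgHcar1 and -0.197 for their difference. For the guide it became -0.155 with PBS and -0.368 with lactate. The share of calls that were higher became 40.0% in place of 50.9% for lactate in sgHcar1, 30.1% in place of 51.4% for the difference, 38.6% in place of 49.9% for the guide with PBS and 31.7% in place of 50.3% with lactate. The difference between the lactate effects turned sign under rescaling for Fn1 (-0.05, or 0.14 relative to the median), Fstl1 (-0.08, or 0.12 relative to it) and Thbs1 (-0.02, or 0.18 relative to it), and for Fstl1 with a pseudocount of 0.1 (-0.16). Leaving out each library gave -0.12 to 0.03 for the lactate change of Thbs1 in sgHcar1 cells and -0.02 to 0.13 for its difference. The cause of these changes was not tested. Same-numbered libraries had deviations that correlated between -0.051 and 0.085 over 18 pairs, and 6 of 12 libraries correlated best with their own number, so the numbers were not taken as pairs. With the replicate block 8938 genes passed for lactate in sgControl, 9899 for lactate in sgHcar1, 8044 for the difference, 10480 for the guide with PBS and 11260 with lactate. Depth in reads is unknown. Values under 1 FPKM in sgHcar1 cells rest on fragment numbers that differ by gene, as few as 1 to 9 for Cspg4 and 29 to 70 for Bgn.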
